A study of Mus musculus with 10 samples.

Results

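The 7 genes Pou2af1, Ighm, Igkc, Cd79a, Cd79b, Ms4a1 and Jchain were taken by symbol, through their Ensembl identifiers, from a table of raw counts for 21556 genes, and all 7 were found. They are genes that define B cells and antibody-secreting cells, read here in a population sorted as regulatory T cells (Tregs). The Tregs were sorted by flow cytometry on red fluorescent protein from a lymph node (LN) or from the tumor of 10-week-old mice injected with a lymphangiogenic mouse melanoma line. Control mice were MHCIIfl/fl without Cre (3 LN and 3 tumor libraries). MHCII-deleted mice were MHCIIΔProx-1, in which Cre driven by Prox1 deletes MHCII in the endothelium of lymphatic vessels (2 LN and 2 tumor libraries), so both genotypes carry the floxed allele. Prox1 drives Cre wherever it is active and is not restricted to lymphatic vessels of the tumor. The 4 groups are called control LN, MHCII-deleted LN, control tumor and MHCII-deleted tumor. The labels do not say whether libraries of a group came from separate mice, so p-values measure the spread between these samples, which may be technical.

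On a B cell the antigen receptor is a membrane immunoglobulin, built from 2 heavy chains (Ighm encodes the constant part of the mu chain of IgM) and 2 light chains (Igkc encodes the kappa constant region), held together with the signaling pair CD79a and CD79b. Ms4a1 encodes CD20, a surface protein of mature B cells. Jchain encodes the joining chain that links IgM and IgA polymers in antibody-secreting cells. Pou2af1 encodes OBF-1 (OCA-B), a coactivator that binds octamer-binding factors on DNA. A functional heavy chain message joins a rearranged V, D and J segment to the constant exons, but the locus can also be transcribed without rearrangement, as sterile transcripts from the D and J end, and such transcripts are known in T lineage cells. OBF-1 and CD79b have been described in T cells as well, while the factor Pax5 is used to define the B lineage.

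Total counts lay between 28539329 and 35736175 per library. Foxp3, the defining Treg factor, was measured at 342 to 817 CPM (counts relative to library size, scaled by the trimmed mean of M-values) in all 10 libraries. The summed level of 23 measured pan-T cell genes was 19983 to 20983 CPM in LN, 19208 to 19622 CPM in control tumors and 7992 to 9542 CPM in MHCII-deleted tumors. The summed level of 12 melanoma markers was 16.3 to 34.5 CPM in LN, 4860 to 9472 CPM in control tumors and 19249 to 23543 CPM in MHCII-deleted tumors. The MHCII-deleted tumor libraries thus had the lowest summed level of T cell genes, and comparisons that use them are also given scaled to the pan-T cell genes. In bulk RNA, fewer cells of a type and less RNA per cell cannot be told apart.

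The heavy chain locus lies on the minus strand of chromosome 12. In the build GRCm38 with GENCODE M21, Ighm spans chr12:113418558-113422730, and the 4 J segments and the D segment nearest to them, Ighd4-1, lie upstream of it. Their germline sequences are shown because in each LN library they held more counts than all heavy chain V segments together. Each is written 5′ to 3′ on the minus strand, and the capitals mark TGGGGN, the 6 bases that encode the tryptophan and glycine shared by J segments. Ighd4-1 lies at chr12:113430528-113430538, Ighj1 at chr12:113429781-113429833, Ighj2 at chr12:113429468-113429515, Ighj3 at chr12:113429085-113429132 and Ighj4 at chr12:113428514-113428567.
Ighd4-1: ctaactgggac
Ighj1: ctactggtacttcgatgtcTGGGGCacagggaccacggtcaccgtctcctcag
Ighj2: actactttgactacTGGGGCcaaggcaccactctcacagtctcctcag
Ighj3: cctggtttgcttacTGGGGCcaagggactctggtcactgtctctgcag
Ighj4: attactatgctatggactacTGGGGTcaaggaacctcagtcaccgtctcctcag

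The other members lie on different chromosomes. In GRCm38 with GENCODE M21, Pou2af1 is at chr9:51213708-51240080 on the plus strand, Igkc at chr6:70726435-70726966 on the plus strand, Cd79a at chr7:24897381-24902197 on the plus strand, Cd79b at chr11:106311341-106314762 on the minus strand, Ms4a1 at chr19:11249675-11266241 on the minus strand and Jchain at chr5:88519809-88527891 on the minus strand. None of the 7 shares exon bases with another annotated gene on either strand. Counts cover all exons of a gene, so the membrane and secreted forms of the mu chain were counted together.

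Pou2af1 separated the tissues most widely of the 3 members that fell in both genotypes. It was 31.1, 38.1 and 32.8 CPM in control LN and 19.6 and 32.0 CPM in MHCII-deleted LN. It was 1.44, 1.09 and 1.17 CPM in control tumors and 0.874 and 0.629 CPM in MHCII-deleted tumors. Every tumor library was below every LN library, and the tumor values rest on 22 to 47 counts against 691 to 1413 counts in LN. Pou2af1 was lower in tumor than in LN by a log2 fold change of -4.78 ± 0.28 (SE, adjusted p = 1.58e-06, edgeR quasi-likelihood test with Benjamini-Hochberg adjustment) in control mice. In MHCII-deleted mice the log2 fold change was -5.10 ± 0.35 (edgeR adjusted p = 4.88e-06). Scaled to pan-T cell genes the differences were -4.70 and -3.87, and both passed the test.

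Ighm had by far the highest level of the 7, also per kilobase of exon. It was 1672, 1434 and 1669 CPM in control LN, 1176 and 1679 CPM in MHCII-deleted LN, 658, 653 and 574 CPM in control tumors, and 346 and 391 CPM in MHCII-deleted tumors. The lowest LN library stood above the highest tumor library, and both deleted tumor libraries stood below the 3 control ones. The log2 fold change of tumor against LN in controls was -1.34 ± 0.13 (edgeR adjusted p = 4.92e-05), and with the deletion it was -1.95 ± 0.17 (edgeR adjusted p = 1.58e-05). Scaled to pan-T cell genes these were -1.26 and -0.74 (edgeR adjusted p = 0.00295 for the second). Ighm therefore passed the test in both genotypes under either scaling, with a smaller difference than Pou2af1. Ighm counts per Pou2af1 count were 37.6 to 59.9 in the 5 LN libraries and 396 to 621 in the 5 tumor libraries.

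Cd79b, the CD79 chain that carried the higher counts in LN, was 19.8, 19.0 and 27.1 CPM in control LN and 15.0 and 17.1 CPM in MHCII-deleted LN. It was 11.8, 12.5 and 7.07 CPM in control tumors and 1.68 and 3.32 CPM in MHCII-deleted tumors. No tumor library reached an LN library. The log2 fold change of tumor against LN in controls was -1.07 ± 0.31 (edgeR adjusted p = 0.0211), and with the deletion it was -2.68 ± 0.40 (edgeR adjusted p = 0.00051). Scaled to pan-T cell genes these were -0.99 (edgeR adjusted p = 0.0293) and -1.5 (edgeR adjusted p = 0.00579). In control mice the call was lost without LN library 3 (-0.89, edgeR adjusted p = 0.0808) and without tumor library 3 (-0.85, edgeR adjusted p = 0.0633).

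Cd79a, its partner in the receptor, did not follow Cd79b. It was low in every library: 1.61, 2.75 and 1.00 CPM in control LN, 2.73 and 3.02 CPM in MHCII-deleted LN, 1.71, 2.77 and 3.09 CPM in control tumors, and 2.66 and 3.66 CPM in MHCII-deleted tumors. The ranges of LN and tumor overlapped, on 30 to 102 counts in LN and 56 to 128 in tumor. The log2 fold change of tumor against LN in controls was 0.49 ± 0.51 (edgeR adjusted p = 0.477), and with the deletion it was 0.14 ± 0.62 (edgeR adjusted p = 0.876). Per 1000 pan-T counts, Cd79a was 0.134 and 0.150 in MHCII-deleted LN and 0.332 and 0.384 in MHCII-deleted tumors, without overlap. Scaled in this way its log2 fold change was 1.33 (edgeR adjusted p = 0.087), which did not pass. On that scale the median over all genes tested was 1.29 and 64.7% of them were higher, so the Cd79a value is near that of all genes. Cd79b counts per Cd79a count were 5.51 to 27.0 in LN, 2.29 to 6.93 in control tumors and 0.633 to 0.906 in MHCII-deleted tumors. The 2 chains pair in the receptor protein, but their messages were not in 1 ratio across these libraries.

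Igkc was 12.4, 7.93 and 12.6 CPM in control LN, 13.3 and 41.9 CPM in MHCII-deleted LN, 13.4, 11.1 and 17.5 CPM in control tumors, and 5.51 and 9.33 CPM in MHCII-deleted tumors. One library, MHCII-deleted LN 2, stood apart from the other 9, which lay between 5.51 and 17.5 CPM. In control mice the tissues did not differ by the test (log2 fold change 0.35 ± 0.41, edgeR adjusted p = 0.53). In MHCII-deleted mice Igkc was lower in tumor (-1.89 ± 0.52, edgeR adjusted p = 0.0138), and this call was lost without MHCII-deleted LN 2 (-0.84, edgeR adjusted p = 0.196), without MHCII-deleted tumor 1 (-1.56, edgeR adjusted p = 0.0826) and with scaling to pan-T cell genes (-0.71, edgeR adjusted p = 0.231). Igkc missed the threshold, too, in limma-voom (adjusted p = 0.176) and with only the groups compared in the fit (edgeR adjusted p = 0.0797). Ighm counts per Igkc count were 133 to 181 in control LN, 40.1 and 88.6 in MHCII-deleted LN and 32.8 to 62.7 in tumor.

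Ms4a1 and Jchain were near the detection limit in tumor. Ms4a1 had 32, 37 and 44 counts in control LN and 75 and 52 in MHCII-deleted LN, against 0, 9, 0, 0 and 30 counts in the 5 tumor libraries (3 control, then 2 MHCII-deleted). A count of 0 allows up to 3 counts, which is 0.0809 to 0.107 CPM in these libraries, for counting error only. The highest tumor library, MHCII-deleted tumor 2 at 0.858 CPM, was below the lowest LN library, at 0.971 CPM. Per 1000 pan-T counts, Ms4a1 in that tumor library was 0.0899, inside the LN range of 0.0476 to 0.105. The Ms4a1 fold change was not called in control (-3.48 ± 1.67, edgeR adjusted p = 0.124) or MHCII-deleted mice (-2.13 ± 1.88, edgeR adjusted p = 0.379, and -1.04 scaled to pan-T cell genes). In control mice Ms4a1 was called without tumor library 2 (-8.22, edgeR adjusted p = 0.0325), where the other 2 tumor libraries are at 0, so that this fitted value is no measure of size, and with limma-voom (-4.56, adjusted p = 0.0237). Jchain had 23, 25 and 0 counts in control LN, 12 and 155 in MHCII-deleted LN, and 3, 3, 0, 9 and 1 in tumor. MHCII-deleted LN 2 again held the highest value, at 4.99 CPM against at most 0.698 CPM elsewhere. The Jchain fold change of tumor against LN was not called in control (-2.76 ± 1.70, edgeR adjusted p = 0.221) or MHCII-deleted mice (-3.99 ± 2.09, edgeR adjusted p = 0.144, -1.04 without MHCII-deleted LN 2 and -2.71 scaled to pan-T cell genes).

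**Figure D1:**
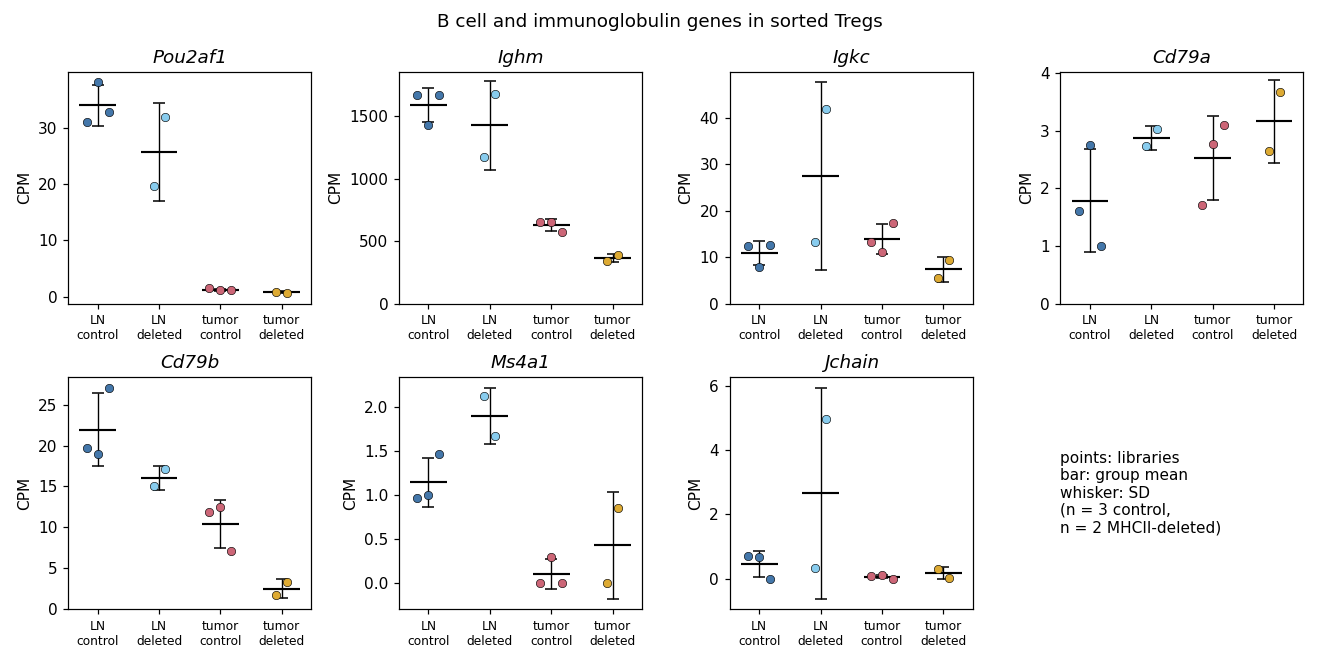
Level of each of the 7 genes in CPM on a linear axis, 1 point per library, with the group mean as a bar and the SD as whiskers (n = 3 for control, n = 2 for MHCII-deleted groups). Pou2af1, Ighm, Cd79b and Ms4a1 have no tumor library within the LN range, where Ms4a1 is near the detection limit in tumor. Cd79a overlaps throughout, and 1 LN library of MHCII-deleted mice holds the highest Igkc and Jchain values.

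In all, 3 of the 7 were lower in tumor than in LN in control mice, 4 were lower in the deleted genotype, and 0 were higher. Over the 13920 genes tested, 16.1% were lower and 22.8% higher in control mice, and 20.1% were lower and 24.3% higher in MHCII-deleted mice. All 7 passed the filter on low counts, but Ms4a1 and Jchain only through their LN counts. Over the other 5 the median log2 fold change was -1.07 against 0.08 over all genes tested in control mice and -1.95 against 0.07 in MHCII-deleted mice. With the pan-T scaling 3 members were lower in each genotype, where 10.8% of all genes were lower and 23.8% higher in control mice and 2.25% lower and 64.7% higher in MHCII-deleted mice, and the median over all genes became 0.16 and 1.29.

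Per kilobase of exon, the order of the mean levels in control LN was Ighm (844 CPM per kilobase), Igkc (20.6), Cd79b (15.3), Pou2af1 (13.3), Cd79a (1.23), Ms4a1 (0.185) and Jchain (0.182). The neighbours Igkc, Cd79b and Pou2af1 lay close together, as did Ms4a1 and Jchain, whose libraries overlapped. In control tumors the order was Ighm (333 CPM per kilobase), Igkc (26.3), Cd79b (7.31), Cd79a (1.73), Pou2af1 (0.483), Jchain (0.025) and Ms4a1 (0.016). Pou2af1 thus moved from above to below Cd79a between the tissues. In MHCII-deleted tumors, Cd79a (2.17 CPM per kilobase) also stood above Cd79b (1.75 CPM per kilobase).

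The variable segments of the heavy chain were low beside Ighm. The summed level of 109 Ighv segments was 0.620 to 4.02 CPM in LN and 0.168 to 1.78 CPM in tumor, so that there were 417 to 2311 Ighm counts per Ighv count in LN and 323 to 2057 in tumor. The 4 J segments printed above summed to 5.26 to 10.4 CPM in LN and 0.675 to 1.65 CPM in tumor, without overlap. Ighj1, the J segment nearest to the D segments, held 71.7% to 79.7% of the Ighj counts in LN and 47.4% to 85.2% in tumor. Reads had 50 bases, and a read that covers a joined V, D and J may be left uncounted or counted for any of its segments.

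Among 17 D segments, Ighd4-1, the one nearest to the J segments, held all D counts in control LN, with 66, 65 and 38 counts. It held 39 and 36 counts in MHCII-deleted LN, where 1 further D segment was detected in each library. In tumor it had 5, 4, 1, 0 and 1 counts. Ighd4-1 and the J segments were thus lower in tumor libraries, as Ighm was, while the ranges of the summed Ighv segments overlapped between the tissues. Ighm counts per Ighj count were 160 to 224 in LN and 258 to 851 in tumor.

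The kappa locus had another pattern. The 96 Igkv segments summed to 2.03, 1.62 and 3.54 CPM in control LN and 4.23 and 12.6 CPM in MHCII-deleted LN. They summed to 0.366, 0.033 and 1.70 CPM in control tumors and 0 and 1.06 CPM in MHCII-deleted tumors. Control tumors, at 11.1 to 17.5 CPM of Igkc, had 1 to 48 Igkv counts, where control LN, at 7.93 to 12.6 CPM, had 60 to 106. In MHCII-deleted LN 2, the single segment Igkv1-135 held 296 of 391 Igkv counts (75.7%) and Ighv1-64 held 69 of 125 Ighv counts (55.2%). That library also had the highest counts of Igkc (1301) and Jchain (155). It detected 6 of 7 defining plasma cell markers, as did MHCII-deleted LN 1 and control LN 1. Its sum of those other than Sdc1 and Derl3 was the highest, at 2.35 CPM, against 2.19 CPM in control LN 1.

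**Figure D2:**
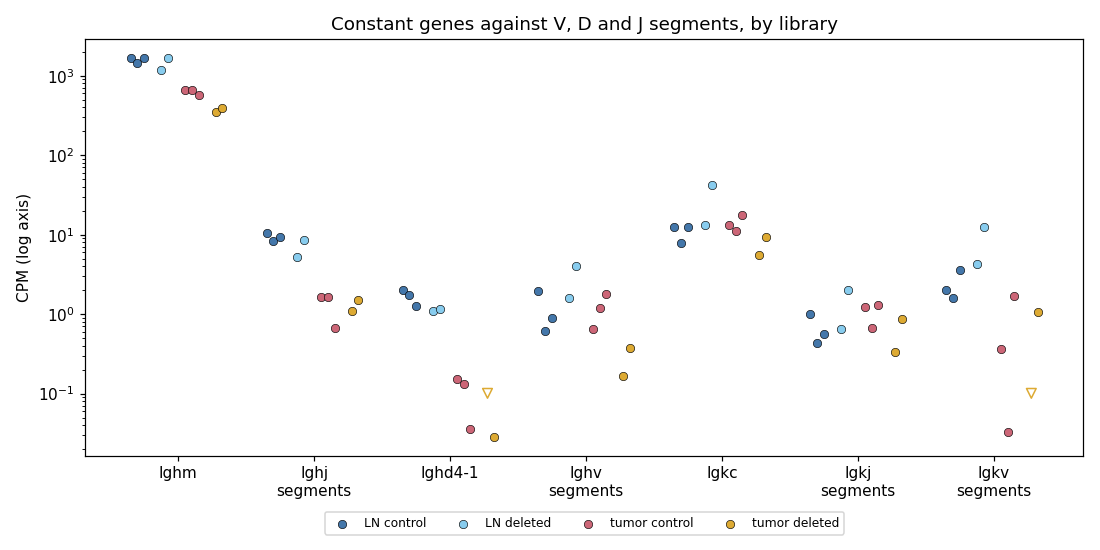
Level in CPM on a log axis of Ighm and Igkc and of the summed heavy (Ighj, Ighd4-1, Ighv) and kappa (Igkj, Igkv) segments, 1 point per library and colour per group. Open triangles are libraries with a count of 0, drawn at the 3 counts that a 0 allows, which is above libraries with 1 count. Ighm stands far above every heavy chain segment sum, and Ighm, the Ighj sum and Ighd4-1 are lower in every tumor library than in every LN library.

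Markers that define B cells were low in these libraries. The 10 defining B cell markers summed to 35.3 to 109.5 CPM in LN and 4.71 to 11.5 CPM in tumor, and most of the LN sum was Cd22, an inhibitory receptor of B cells, with 899 to 2971 counts. Without Cd22 the other 9 summed to 6.45 to 13.6 CPM in LN and 3.05 to 6.78 CPM in tumor, which overlap. Pax5 had 3 to 32 counts in LN and 0 or 1 in tumor. Of these 10 markers 9 or 10 were detected in each LN library and 5 to 10 in each tumor library. Defining plasma cell markers other than Sdc1, which the tumor libraries held at 11.7 to 48.1 CPM, summed to 4.97 to 10.9 CPM in LN and 0.396 to 1.78 CPM in tumor. This separation rests on Derl3, since without it the sums were 0.513 to 2.35 CPM in LN and 0.101 to 1.46 CPM in tumor, which overlap. Tnfrsf17, the survival receptor of plasma cells, had 0 counts in every LN library and 0 or 1 in tumor. In control mice 3 of the 10 B cell markers were lower in tumor (Cd22, Pax5 and Bank1) and 1 was higher (Ebf1). Of all genes tested in this comparison, 16.1% were lower and 22.8% higher. Pax5 passed the filter on low counts only through LN, so a fall in tumor was the only outcome open to it. In the sum of all 10 B cell markers no tumor library reached an LN library, as for Pou2af1 and Ighm, but this separation rests on Cd22. The part of B cells in the fall of Pou2af1, Ighm and these markers was not tested.

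In tumor, Ighm and Cd79b were lower in MHCII-deleted than in control mice, Ighm only at the scaling to library size and not when scaled to pan-T cell genes. Cd79b fell by a log2 fold change of -2.06 ± 0.38 (edgeR adjusted p = 0.00359) and Ighm by -0.77 ± 0.15 (edgeR adjusted p = 0.00499). These 2 of the 7 were lower and 0 higher, where 13.7% of all genes tested were lower and 15.0% higher. Without Ms4a1 and Jchain the median log2 fold change was -0.77 against 0.10 over all genes. Pou2af1 (-0.72 ± 0.31, edgeR adjusted p = 0.104), Igkc (-0.91 ± 0.47, edgeR adjusted p = 0.171), Cd79a (0.32 ± 0.57), Ms4a1 (2.08 ± 1.73) and Jchain (1.29 ± 1.84) were not called.

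The direction of Ighm in this comparison depended on the scaling. Of the 23 pan-T cell genes tested 22 were lower in MHCII-deleted tumors, with a median log2 fold change of -1.19, and 11 of 12 melanoma markers were higher. Per 1000 pan-T counts, Ighm was 29.8 to 34.0 in control tumors and 40.9 to 43.3 in MHCII-deleted tumors. Scaled to pan-T cell genes, which moves the median of all genes tested to 1.26 and makes 68.1% of them higher and 0.302% lower, Ighm was higher by 0.38 (edgeR adjusted p = 0.0476) and Cd79a by 1.45 (edgeR adjusted p = 0.0415). Cd79b remained lower at -0.95 (edgeR adjusted p = 0.0353), with 0.367 to 0.648 counts per 1000 pan-T counts in control and 0.210 to 0.348 in MHCII-deleted tumors. With limma-voom, at the scaling used throughout, neither Ighm (adjusted p = 0.061) nor Cd79b (adjusted p = 0.0614) passed the threshold.

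In LN, 0 of the 7 were called for the deletion, where 1.11% of genes were called (1.07% higher and 0.0359% lower); edgeR gave 1 of the 7 an unadjusted p under 0.05, and DESeq2 and limma-voom called 0. That gene was Igkc (1.33 ± 0.45, edgeR adjusted p = 0.248), which was 0.27 without MHCII-deleted LN 2. Jchain was 2.53 ± 1.67 (edgeR adjusted p = 0.858) and turned to -0.42 without that library. Pou2af1 (-0.40 ± 0.26), Ighm (-0.16 ± 0.15), Cd79b (-0.45 ± 0.35), Cd79a (0.68 ± 0.57) and Ms4a1 (0.73 ± 1.62) did not pass.

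The deletion effects of tumor and LN were also set against each other. In this test 0 of the 7 were called by edgeR, where 6.57% of genes had a lower and 4.14% a higher effect in tumor. Igkc (-2.24 ± 0.65, edgeR adjusted p = 0.0557), Cd79b (-1.61 ± 0.49, edgeR adjusted p = 0.0658) and Ighm (-0.61 ± 0.21, edgeR adjusted p = 0.0902) had an unadjusted p under 0.05. DESeq2 called 2 of them, Igkc (-2.18, adjusted p = 0.0130) and Cd79b (-1.54, adjusted p = 0.0275), and limma-voom called 0. The lower Ighm and Cd79b in MHCII-deleted tumors are thus not shown by edgeR to differ from the effect in LN.

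**Figure D3:**
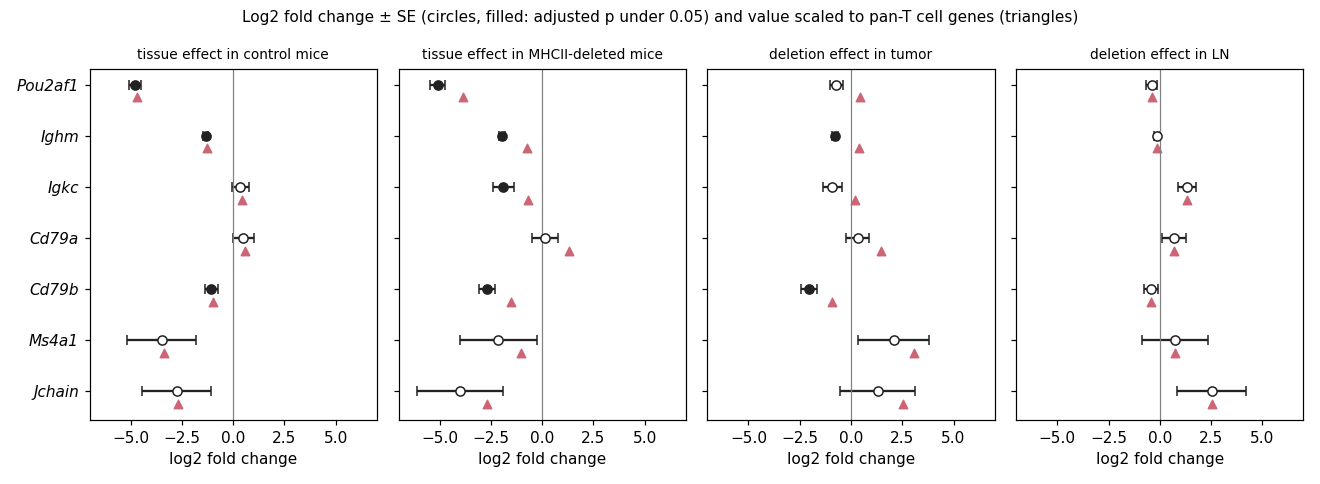
Log2 fold change (x axis) of each of the 7 genes in 4 comparisons, with circles for the edgeR value and its SE, filled where the adjusted p is under 0.05, and triangles for the value scaled to pan-T cell genes. The tissue differences of Pou2af1, Ighm and Cd79b stay below 0 under either scaling, while Ighm in the tumor comparison of the genotypes moves from -0.77 to 0.38.

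OBF-1 acts with octamer-binding factors, and 1 of the 2 that passed the filter, Pou2f2 (OCT-2), was also lower in tumor. Pou2f2 was 38.2 to 47.6 CPM in the 3 control LN libraries and 10.8 to 16.4 CPM in control tumors (log2 fold change -1.70 ± 0.22, edgeR adjusted p = 0.00025). Pou2f1 (OCT-1), which most cells express, was not called in control mice, and Pou2f3 had 0 counts in every LN library. In MHCII-deleted mice both Pou2f2 (-2.85 ± 0.28, edgeR adjusted p = 3.74e-05) and Pou2f1 (-0.98 ± 0.29, edgeR adjusted p = 0.0204) were lower, and scaled to pan-T cell genes Pou2f1 was 0.23 and not called.

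The promoter of Pou2af1 is shown because its own product works through the octamer. RefSeq promoters were matched for 3 of the 7 members, Pou2af1, Cd79a and Jchain. The 250 bases before the RefSeq start of Pou2af1 lie at chr9:51213440-51213689 on the plus strand of GRCm38.p6, and the capitals mark TGCAAAT, the octamer ATGCAAAT without its first base, at position -231 from the start.
Pou2af1 promoter: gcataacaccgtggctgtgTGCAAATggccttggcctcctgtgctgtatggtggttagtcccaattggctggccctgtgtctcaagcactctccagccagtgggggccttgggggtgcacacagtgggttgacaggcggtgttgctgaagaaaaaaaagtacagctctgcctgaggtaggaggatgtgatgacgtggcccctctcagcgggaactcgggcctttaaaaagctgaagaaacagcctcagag
On both strands, the whole octamer ATGCAAAT was found in 526 of 32851 RefSeq promoter windows (1.60%) and in none of the 3 members, and TGCAAAT, which every ATGCAAAT contains, in 1171 (3.56%), among them Pou2af1 but not Cd79a or Jchain. These are matches of letters in these windows.

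Other genes of the B lineage moved in both directions. Of 14 B lineage surface receptors tested in control mice, 3 were lower in tumor and 0 higher, and their median log2 fold change was -0.51. In this comparison 16.1% of all genes tested were lower and 22.8% higher, so the share of lower receptors is near that of all genes. Cd22 was 49.5 to 99.3 CPM in control LN and 1.68 to 4.76 CPM in control tumors (-4.44 ± 0.49, edgeR adjusted p = 0.000106). Tnfrsf13b (TACI, a receptor for the B cell survival factors BAFF and APRIL) was 112 to 122 CPM in control LN and 57.6 to 72.2 CPM in control tumors (-0.80 ± 0.12, edgeR adjusted p = 0.000548). Fcrl5 had 0 counts in all tumor libraries and was at least 20.1-fold lower in control tumors, against a floor of 3 counts over the group. Fcrl5 passed the filter on low counts only through LN, so its fall is a description only. Of 9 B lineage transcription factors 3 were higher (Irf8, Ebf1 and Tcf4) and 2 lower (Bach2 and Pax5), with a median of 0.36. Irf8 rose by 1.57 ± 0.17 (edgeR adjusted p = 9.80e-05) and Bach2 was -2.04 ± 0.54 (edgeR adjusted p = 0.0151). The number of lower factors was 1 in 14 of 19 alternatives, among them scaling to pan-T cell genes, where Pax5 was not called (edgeR adjusted p = 0.0543). Pax5 had 1 count over the 3 control tumor libraries. It passed the filter on low counts only through LN, so its fall is a description only. Without control LN 3 or without control tumor 2, 1 factor was higher. Of 12 stromal and endothelial markers 9 were higher in control tumors, with a summed level of 182 to 221 CPM in control LN and 545 to 4244 CPM in control tumors, and the 12 melanoma markers rose as given above. The part of such cells in the higher factors was not tested.

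The B cell receptor signaling list held 4 genes higher and 2 lower in control tumors, of 10 tested, with a median log2 fold change of 0.63, beside the 22.8% higher and 16.1% lower of all genes. The kinase Lyn was higher (3.61 ± 0.29, edgeR adjusted p = 1.09e-05), as was Cd81, a tetraspanin with wide expression (1.27 ± 0.15, edgeR adjusted p = 0.000128), and the adaptor Dapp1 was lower (-0.86 ± 0.14, edgeR adjusted p = 0.00126). Without control LN 1, control LN 3 or control tumor 2, 1 of the list was lower. Many of these genes are also used in T cells or myeloid cells. Of 14 myeloid and dendritic markers tested 2 were higher in control tumors, and their summed level was 32.0 to 66.3 CPM in LN and 37.2 to 49.9 CPM in tumor. The part of such cells in the higher Lyn was not tested.

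Among the other immunoglobulin constant genes, 2 of 6 tested were lower in control tumors and 0 higher. Ighg1 had 12 to 29 counts in each LN library and 0 in each tumor library, at least 18.2-fold lower in control and at least 17.9-fold lower in MHCII-deleted mice, against a floor of 3 counts over the group. Ighg3 had 57 to 86 counts in control LN and 9, 0 and 0 in control tumors (-4.51 ± 1.30, edgeR adjusted p = 0.0209). Without control LN 1 or control LN 3, 1 of the list was lower. Ighg2b had 0 counts in all tumor libraries, and Ighe had 0 counts in all 10 libraries. With genes at 0 in tumor set to their bound, the median log2 fold change of the list was -3.28. Ighg1 and Ighg2b passed the filter on low counts only through LN, so a fall in tumor was the only outcome open to them. Ighg3 also passed only through LN, so its fall in control tumors and its p-value are descriptions only. The median and the count of lower genes in this list are therefore descriptions only. Of 11 plasma cell genes tested 4 were higher (Sdc1, Ell2, Irf4 and Xbp1) and 1 lower, with a median of 0.47, beside the same shares of all genes. Derl3, of the endoplasmic reticulum, had 179 to 288 counts in control LN and 6, 0 and 9 in control tumors (-5.27 ± 0.88, edgeR adjusted p = 0.00125). Within control mice Derl3 reached the minimum count of 10 only in LN, so its fall and p-value are descriptions only. Irf4, Xbp1 and Ell2 are also used by effector T cells, and Sdc1 by many epithelial and tumor cells.

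Most listed genes of T follicular cells, which work beside B cells in the follicle, were lower in tumor too. Of 12 tested 9 were lower and 2 (Icos and Pdcd1) higher in control tumors, with a median log2 fold change of -1.45, where 16.1% of all genes were lower and 22.8% higher. The summed level of the list went the other way, at 2705 to 2929 CPM in control LN and 3867 to 4005 CPM in control tumors, and Icos alone was 901 to 1002 CPM and 1942 to 2262 CPM in the same groups. Cxcr5, the receptor that guides cells into the follicle, was 180, 257 and 256 CPM in control LN and 32.9, 43.4 and 32.1 CPM in control tumors (-2.68 ± 0.20, edgeR adjusted p = 8.19e-06). Btla, an inhibitory receptor, was also lower (-2.17 ± 0.14, edgeR adjusted p = 2.35e-06), and Pdcd1, which encodes PD-1, was higher (1.62 ± 0.14, edgeR adjusted p = 1.59e-05). Ascl2, a factor of follicular helper cells, had 74 to 104 counts in control LN and 0 in every tumor library, at least 81.8-fold lower in control and at least 54.3-fold lower in MHCII-deleted mice. In MHCII-deleted mice 8 of the 12 were lower and 2 higher, also 8 lower with scaling to pan-T cell genes, where 3 were higher and 2.25% of all genes were lower. Ascl2 and Il21 passed the filter on low counts only through LN, so a fall in tumor was the only outcome open to them. The medians and the counts of lower genes in this list are therefore descriptions only.

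**Figure D4:**
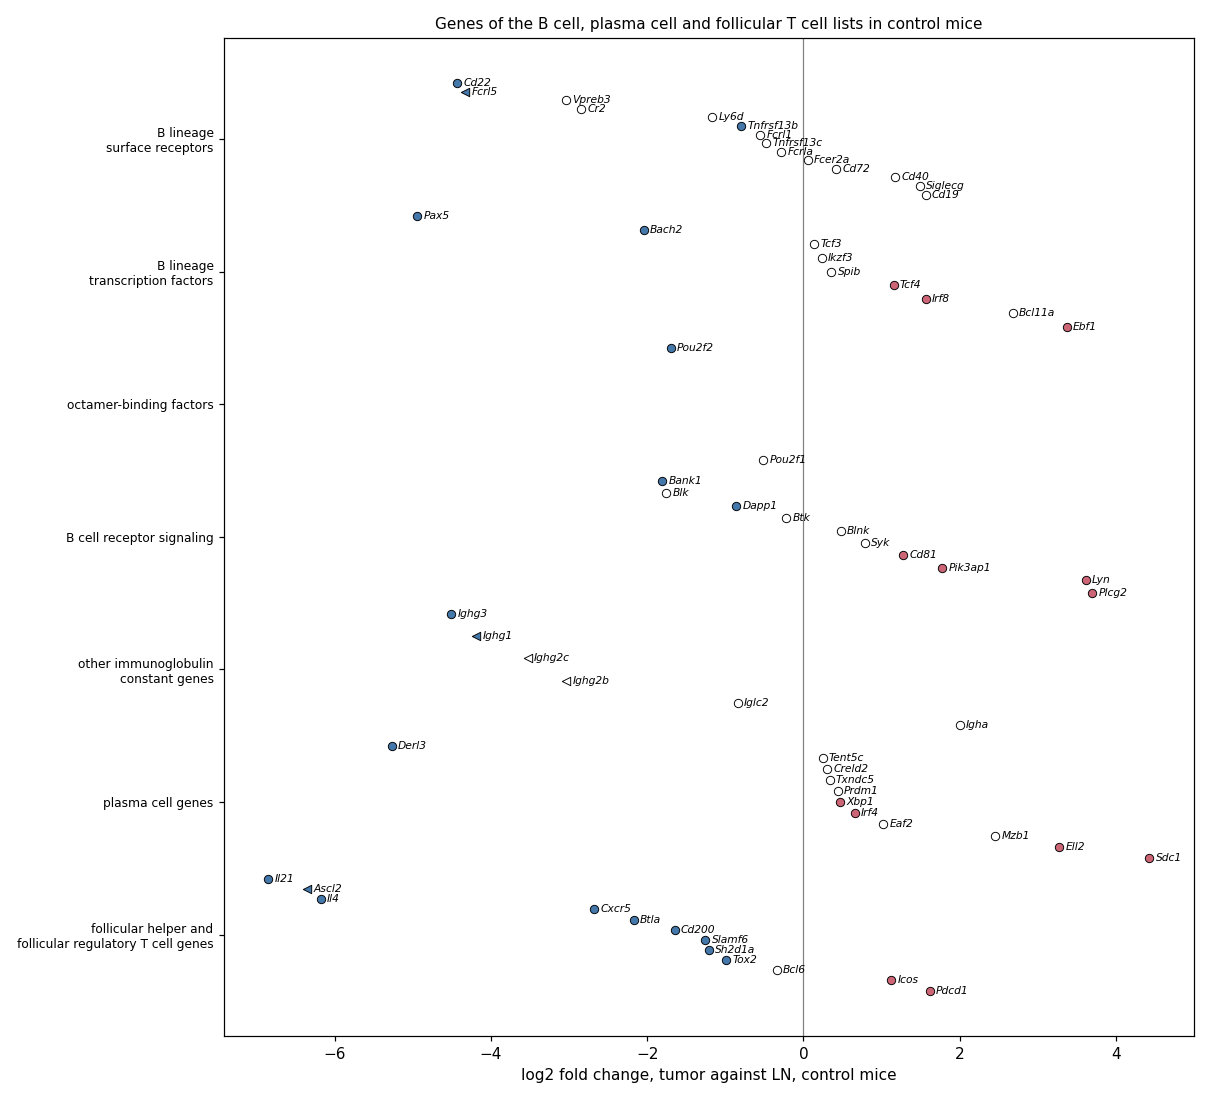
Log2 fold change of tumor against LN in control mice (x axis) for each tested gene of 7 lists, with filled symbols for an edgeR adjusted p under 0.05 (blue lower, red higher) and open symbols otherwise. Left-pointing triangles are lower bounds of the fall for genes with 0 counts in the control tumor libraries, against 3 counts over the group. The B lineage lists spread to both sides of 0, while 9 of 12 follicular T cell genes are lower. Ascl2, Il21, Pax5, Fcrl5, Ighg1, Ighg2b and Ighg3 passed the filter on low counts only through LN.

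The tissues of MHCII-deleted mice gave 5 lower of 14 surface receptors, 2 lower and 2 higher of 9 transcription factors, 2 lower and 3 higher of 10 signaling genes, 1 lower of 6 constant genes, and 3 lower and 2 higher of 11 plasma cell genes, where 20.1% of all genes tested were lower and 24.3% higher. Scaling to pan-T cell genes moves all genes upward in this comparison, so that 64.7% of them were higher and 2.25% lower. On that scale 1 surface receptor was higher and 4 lower, 6 transcription factors were higher and 1 lower, and 8 plasma cell genes were higher and 0 lower, with the shares of higher factors and plasma cell genes near that of all genes. In the tumor comparison of the genotypes, where 13.7% of all genes were lower and 15.0% higher, 2 surface receptors (Tnfrsf13b and Fcrl1), 3 transcription factors, 2 signaling genes and 3 plasma cell genes were lower, and 1 transcription factor and 1 signaling gene were higher. The 2 of 14 surface receptors are near the share of all genes. The lower factors came to 1 without MHCII-deleted tumor 2, and the lower signaling genes to 1 without control tumor 2 or MHCII-deleted tumor 1. After scaling to pan-T cell genes 0 genes of these 4 lists were lower, where 0.302% of all genes were lower and 68.1% higher. In any alternative at most 1 surface receptor, 3 transcription factors, 2 signaling genes and 6 plasma cell genes were higher.

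The genes whose pattern was closest to that of Pou2af1 were found by the root mean square difference of centred log2(CPM + 0.5) over the 10 libraries, among 13347 protein coding genes. They were Sostdc1 (0.277), Il21 (0.308), Dapl1 (0.528), Nsg2 (0.545) and Gata1 (0.556), where the median gene was at 2.25. Il21, a cytokine of follicular helper cells, was 8.11 ± 1.79 CPM in control LN and 0.068 ± 0.071 CPM in control tumors (SD, n = 3). Sostdc1, a secreted antagonist of BMP and Wnt signaling, was 10.7 ± 0.647 CPM and 0.105 ± 0.126 CPM in the same groups (SD, n = 3). Both are so far under 0.5 CPM in tumor that their distance depends on the 0.5 added before the log and is no sign of a fold change equal to that of Pou2af1.

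The genes closest to Ighm were others. They were Lax1 (0.131), Arhgef3 (0.141), Slamf6 (0.158), Trat1 (0.177) and Klhl6 (0.178), where the median gene was at 0.963. Lax1 and Trat1 encode adaptors of lymphocyte receptor signaling, and Slamf6 a receptor of T, B and NK cells. Lax1 was 227 ± 13.5 CPM in control LN and 93.6 ± 3.34 CPM in control tumors (SD, n = 3), and Slamf6 516 ± 29.4 CPM and 216 ± 38.7 CPM (SD, n = 3). These distances are descriptions over libraries that share tissue and T cell share.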

How the data were processed

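The 7 genes and all gene lists were chosen with earlier results of these data known. Per the labels' protocols, cDNA was made from 1 ng of RNA of the sorted cells and amplified (SMARTer), turned into Nextera XT libraries and sequenced as single 50-base reads. Per the submitters' processing notes, STAR 2.4, CASAVA 1.8.2 and featureCounts 1.4.6 were used with GRCm38; the annotation release and strand setting are not given in the sources used here. The deposited values are raw counts, 1 per Ensembl gene and library, and all 21556 identifiers matched GENCODE M21. Amplified reads are not independent molecules, so floors cover counting error only.

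The model was fitted in R 4.3.3 with edgeR 4.0.16: filterByExpr (minimum count 10, 13920 genes kept), TMM scaling, and a robust quasi-likelihood fit of all 10 libraries as 4 group means, which share 1 estimate of spread. P-values were adjusted over all genes tested by Benjamini-Hochberg and called under 0.05. The SE is the log2 fold change divided by the root of F. The fit was tested on simulated data. Replicate libraries differed by more than sampling noise. The text names all 7 members, up to 4 called genes by p of each list per comparison, listed genes at 0 in a whole tissue, and 5 genes closest to Pou2af1 and to Ighm; the marker gene Pax5 and the library MHCII-deleted LN 2 were singled out after their values were seen. A marker gene that the lists and sums hold is not reported here on its own. Alternatives were RLE size factors, DESeq2 1.42.0, limma-voom (limma 3.58.1), no filter, a spread that is not robust, only the groups compared, receptor segments left out, a replicate block, scaling to pan-T cell genes and leaving out each library; list counts under these alternatives were added after seeing the data. Ighd, Iglc1 and Iglc3 were not analysed here.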

Additional observations from a re-analysis of the deposited data

How the results depend on the processing

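In each of 19 alternatives Pou2af1 and Ighm were lower in tumor than in LN in both genotypes, with Pou2af1 between -4.91 and -4.69 in control mice. Limits are the 2 libraries per MHCII-deleted group, the low counts of Ms4a1, Jchain and Cd79a, and the T cell share of the tumor libraries; the cause of each change below was not tested. Of the members, 0 were lower in the tumor comparison of the genotypes with limma-voom, and with pan-T scaling 1 was lower and 2 were higher. Pan-T scaling turned that comparison to 0.44 for Pou2af1, 0.38 for Ighm and 0.21 for Igkc, and the difference of the deletion effects to 0.82 for Pou2af1, 0.52 for Ighm and 0.75 for Cd79a. For that difference, 0 members were lower in the main fit, 2 with DESeq2, 1 without the filter and 0 to 2 with a library left out. Single libraries turned signs. With each library left out, the LN deletion effect lay between -0.44 and 0.076 for Ighm (positive without MHCII-deleted LN 1) and between -0.42 and 3.43 for Jchain (negative without MHCII-deleted LN 2). The tumor deletion effect lay between -4.72 and 6.82 for Ms4a1 (negative without MHCII-deleted tumor 2) and between -1.07 and 2.17 for Jchain (negative without MHCII-deleted tumor 1). Tissue in MHCII-deleted mice lay between -0.12 and 0.35 for Cd79a (negative without MHCII-deleted tumor 2). The difference of the deletion effects lay between -0.63 and 0.075 for Pou2af1 and between -3.60 and 1.73 for Jchain (both positive without MHCII-deleted LN 2) and between -5.44 and 6.09 for Ms4a1 (negative without MHCII-deleted tumor 2). Log2 Ighm per Cd79b count, tumor minus LN, was 0.18 and lay between -0.12 (without MHCII-deleted tumor 1) and 0.38. Of all genes, the LN deletion called 154 in the main fit and 0 to 806 in the alternatives, the tumor deletion 3999 and 2519 to 9523, tissue in MHCII-deleted mice 6175 and 4293 to 9320, and the difference 1491 and 527 to 6495.

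Replicate numbers are shared by LN and tumor, and same-numbered libraries deviated together with correlations of 0.0400 to 0.0805. Control libraries of different number had -0.0533 to -0.0010, so each control library correlated best with its own number. With 2 libraries per MHCII-deleted group, the values there mirror each other by construction. These low correlations do not decide whether the libraries are pairs, and the main fit did not take them as such. With the replicate block Pou2af1 was -4.78 and -5.08 for tissue, Ighm -0.79 and Cd79b -2.12 for the tumor deletion, no member's call changed, and the LN deletion called 0 genes.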
